A study of Mus musculus with 50 samples.

Results

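The 33 genes described here carry glucose from the cell surface to acetyl-CoA: glucose transporters and the Rab GTPase activators that govern their traffic, the enzymes of glycolysis, lactate dehydrogenase and lactate transporters, the mitochondrial pyruvate carrier and the pyruvate dehydrogenase complex. They were chosen by gene symbol and not by any measured value, and they are 33 of the 52338 gene identifiers that the quadriceps and perigonadal fat tables share. The readout was tag sequencing of the 3′ ends of polyadenylated transcripts in bulk quadriceps muscle and perigonadal white adipose tissue (pgWAT) of male mice. All mice carried hM3DGq, a designer receptor that excites neurons when it binds clozapine-N-oxide (CNO), and all received CNO at 1 mg/kg, so no group without CNO was analysed here. TG mice were Gfral Cre-positive, which places the receptor in neurons that express GFRAL, the hindbrain receptor of GDF15, and WT mice were Cre-negative. Neither the age of the mice nor the Cre and receptor alleles in more detail are given in the labels.

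Quadriceps came from clamped mice (10 WT and 10 TG libraries), fat was taken 1 h after CNO (9 and 9) and, from other samples, 6 h after CNO (6 and 6). According to the series' design text, glucose uptake on neuron activation had been lower in quadriceps and higher in pgWAT, and the comparison of TG with WT asks how gene expression differs in those tissues. The labels do not say that replicates are separate mice, so p-values measure only the spread between these samples. The TG quadriceps library numbered 10 has a treatment label that names 1 h instead of the clamp and was kept by its title. Library sizes were 959980 to 2613672 gene counts in quadriceps, 976610 to 4852560 in pgWAT at 1 h and 9150496 to 12883462 in pgWAT at 6 h. Quadriceps and 1 h fat libraries were made with a kit that tags molecules with unique identifiers and the 6 h libraries without, so time after CNO and kit cannot be told apart. The tissue labels held: 10 fast muscle markers summed to 49856 to 82548 CPM (gene counts scaled to a common library size) in quadriceps and 12.0 to 124 CPM in fat, and 8 adipocyte markers summed to 571 to 1423 CPM in quadriceps and 10976 to 55853 CPM in fat. Some libraries stood apart: 8 liver transcripts summed to as much as 9494 CPM in fat at 1 h and 1459 CPM in TG replicate 2 at 6 h, and 3 heat shock transcripts were high in quadriceps WT replicates 2 and 10. The libraries in doubt, left out together below, are these 2 quadriceps libraries, that 6 h library and the 9 of 18 fat libraries at 1 h whose liver or duct transcripts exceeded 5 times the median, which leaves 3 WT and 6 TG libraries at 1 h. In bulk tissue, fewer cells of a type and less RNA per cell cannot be told apart.

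GLUT1 carries glucose into most cells at rest. GLUT4 waits in vesicles and moves to the surface of muscle and fat cells when insulin signals or muscle contracts. Hexokinase traps glucose as glucose 6-phosphate, phosphofructokinase commits it to glycolysis, and pyruvate at the end of the pathway is either reduced to lactate or carried into mitochondria, where pyruvate dehydrogenase turns it into acetyl-CoA. Most steps have several isoenzymes encoded by separate genes, and skeletal muscle is known for its own set, among them the M form of phosphofructokinase, the muscle phosphoglycerate mutase and beta-enolase.

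The genes that carry the results include the 3 members that differed by genotype in fat and an enolase pair that divided between the tissues. They also include the lactate exporter Slc16a3, whose genotype difference was not the same in the quadriceps and 6 h fat sets. A promoter of each of these genes is shown here, for Eno1 1 of the 3 listed. Each is 300 bases in RefSeq's coordinates on GRCm38.p6, from 250 bases before the transcription start to 50 bases after it, printed 5′ to 3′ in the direction of the gene. Capitals mark ACGTG, the core that HIF-1 and several basic helix-loop-helix factors recognise, or AGAACA, part of the glucocorticoid receptor's recognition sequence, on either strand.
Hk2 promoter, chr6:82774405-82774704, minus strand: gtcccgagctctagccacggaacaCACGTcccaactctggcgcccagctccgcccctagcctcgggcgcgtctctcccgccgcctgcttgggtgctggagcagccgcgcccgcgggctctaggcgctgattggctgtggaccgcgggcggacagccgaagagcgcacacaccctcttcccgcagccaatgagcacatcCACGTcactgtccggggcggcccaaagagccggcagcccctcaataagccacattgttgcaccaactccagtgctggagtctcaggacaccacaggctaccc
Slc2a1 promoter, chr4:119108495-119108794, plus strand: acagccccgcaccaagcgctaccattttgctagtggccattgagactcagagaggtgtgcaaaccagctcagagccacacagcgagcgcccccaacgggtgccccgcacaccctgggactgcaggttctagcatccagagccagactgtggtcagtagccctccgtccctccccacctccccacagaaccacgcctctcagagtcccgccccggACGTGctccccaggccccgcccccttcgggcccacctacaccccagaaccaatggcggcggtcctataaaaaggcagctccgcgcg
Mpc2 promoter, chr1:165461010-165461309, plus strand: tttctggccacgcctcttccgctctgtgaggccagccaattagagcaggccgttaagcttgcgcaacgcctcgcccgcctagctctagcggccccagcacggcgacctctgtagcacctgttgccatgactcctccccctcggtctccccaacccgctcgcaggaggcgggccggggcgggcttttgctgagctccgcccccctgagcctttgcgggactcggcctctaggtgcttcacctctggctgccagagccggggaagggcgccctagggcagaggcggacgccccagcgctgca
Slc16a3 promoter, chr11:120948817-120949116, plus strand: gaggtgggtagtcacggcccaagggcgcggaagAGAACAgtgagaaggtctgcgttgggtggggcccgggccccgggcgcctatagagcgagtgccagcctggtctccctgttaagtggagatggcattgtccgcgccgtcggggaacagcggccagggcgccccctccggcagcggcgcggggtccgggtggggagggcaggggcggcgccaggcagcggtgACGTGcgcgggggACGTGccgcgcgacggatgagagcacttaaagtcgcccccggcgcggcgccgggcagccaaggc
Eno1 promoter, chr4:150236974-150237273, plus strand: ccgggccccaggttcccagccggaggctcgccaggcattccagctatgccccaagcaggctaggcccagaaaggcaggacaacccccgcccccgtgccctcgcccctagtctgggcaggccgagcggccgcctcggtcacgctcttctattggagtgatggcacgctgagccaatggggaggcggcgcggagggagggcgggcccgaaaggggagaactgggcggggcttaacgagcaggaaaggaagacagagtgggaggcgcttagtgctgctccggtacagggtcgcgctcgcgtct
Eno3 promoter, chr11:70656926-70657225, plus strand: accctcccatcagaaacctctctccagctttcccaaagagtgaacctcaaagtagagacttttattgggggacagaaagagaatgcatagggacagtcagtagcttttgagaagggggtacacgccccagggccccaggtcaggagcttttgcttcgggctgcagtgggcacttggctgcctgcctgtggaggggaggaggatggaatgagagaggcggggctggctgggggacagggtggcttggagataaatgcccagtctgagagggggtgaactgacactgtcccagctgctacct

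Hk2 and Slc16a3 each held 2 ACGTG cores, Slc2a1 held 1, and Mpc2, Eno1 and Eno3 held none; the longer E-box CACGTG, which contains ACGTG, was in none of the 6. Slc16a3 alone among them held AGAACA. Of 32851 mouse promoters of the same length, 19.6% held ACGTG, 7.15% held CACGTG and 6233 promoters held AGAACA. A promoter was matched for 31 of the 33 members, and Ldha, which encodes the lactate dehydrogenase subunit of muscle, had the largest number of cores among them, 5 in its upstream promoter. The enolase pair differed in base composition. The ratio of observed to expected CpG was 0.712 in the Eno1 promoter shown and 0.580 and 0.676 in the others of Eno1. It was 0.128 in that of Eno3, against a median of 0.384 over all promoters. Among the phosphoglycerate mutases the same ratio was 0.948 for Pgam1 and 0.0469 for Pgam2. These matches describe letters and not binding.

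In fat 6 h after CNO, 3 members passed the test between genotypes: Hk2 fell, and Slc2a1 and Mpc2 rose in TG. Hk2, the insulin-responsive hexokinase of muscle and fat (chr6:82725025-82774454 in the GENCODE annotation on GRCm38), ran from 155 to 197 CPM in the WT libraries, with a median of 159. In TG it ran from 85.2 to 116 CPM, with a median of 105. Every TG library was below every WT library, and the groups did not overlap. The log2 change was -0.73 (SE 0.09, 95% interval -0.92 to -0.54, adjusted p = 2.53e-05 by the edgeR quasi-likelihood test, adjusted over all genes), which puts the TG level at 0.603 of that in WT. Hk1, the hexokinase of most tissues, had a log2 change of -0.08 (SE 0.08, adjusted p = 0.550).

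Slc2a1, which encodes the basal glucose transporter GLUT1 (chr4:119108711-119137983), ran from 8.92 to 13.9 CPM in WT, with a median of 11.8. In TG it ran from 12.4 to 19.1 CPM, with a median of 16.2. The groups overlapped, 4 of 6 TG libraries lay above every WT library and all 6 lay above the WT median. Its log2 change was 0.45 (SE 0.13, 95% interval 0.16 to 0.73, adjusted p = 0.0326). Without TG replicate 2, which held 1459 CPM of 8 liver transcripts where the TG median was 61.9 CPM, the change was 0.40 and the adjusted p was 0.0751.

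Mpc2, a subunit of the carrier that brings pyruvate into mitochondria (chr1:165460637-165481214), ran from 251 to 335 CPM in WT, with a median of 306. In TG it ran from 317 to 417 CPM, with a median of 363. Again 4 of 6 TG libraries lay above all WT libraries and all 6 above the WT median. The log2 change was 0.26 (SE 0.08, 95% interval 0.09 to 0.44, adjusted p = 0.0447). Its partner subunit Mpc1 had a log2 change of 0.10 (SE 0.15), with 45.8 to 80.9 CPM in WT and 46.9 to 76.3 CPM in TG, and did not pass.

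These 3 are 9.38% of the 32 members tested at 6 h, against 14.4% of all 14359 genes tested in that comparison (6.88% higher and 7.54% lower), a share that does not exceed the background. Of the 32, 27 had a log2 change above 0 and 5 below, and 6 had an unadjusted p under 0.05, a level reached by 26.6% of all genes. Their median log2 change was 0.09, against 0.002 over all genes. Pgam2 was too low to test. DESeq2 called the same count of 3 members, where it called 17.0% of all genes. Hk2 passed in each of the 12 fits that left out 1 library, with log2 changes from -0.77 to -0.68. Slc2a1 passed in 6 of those 12, and was lost without WT replicate 2, 3 or 5 or TG replicate 2, 5 or 6 (adjusted p 0.0185 to 0.0790). Mpc2 passed in 5, and was lost without WT replicate 1, 5 or 6 or TG replicate 3, 4, 5 or 6 (adjusted p 0.0290 to 0.107). Without WT replicate 5, TG replicate 5 or TG replicate 6, Hk2 alone was called.

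**Figure D1:**
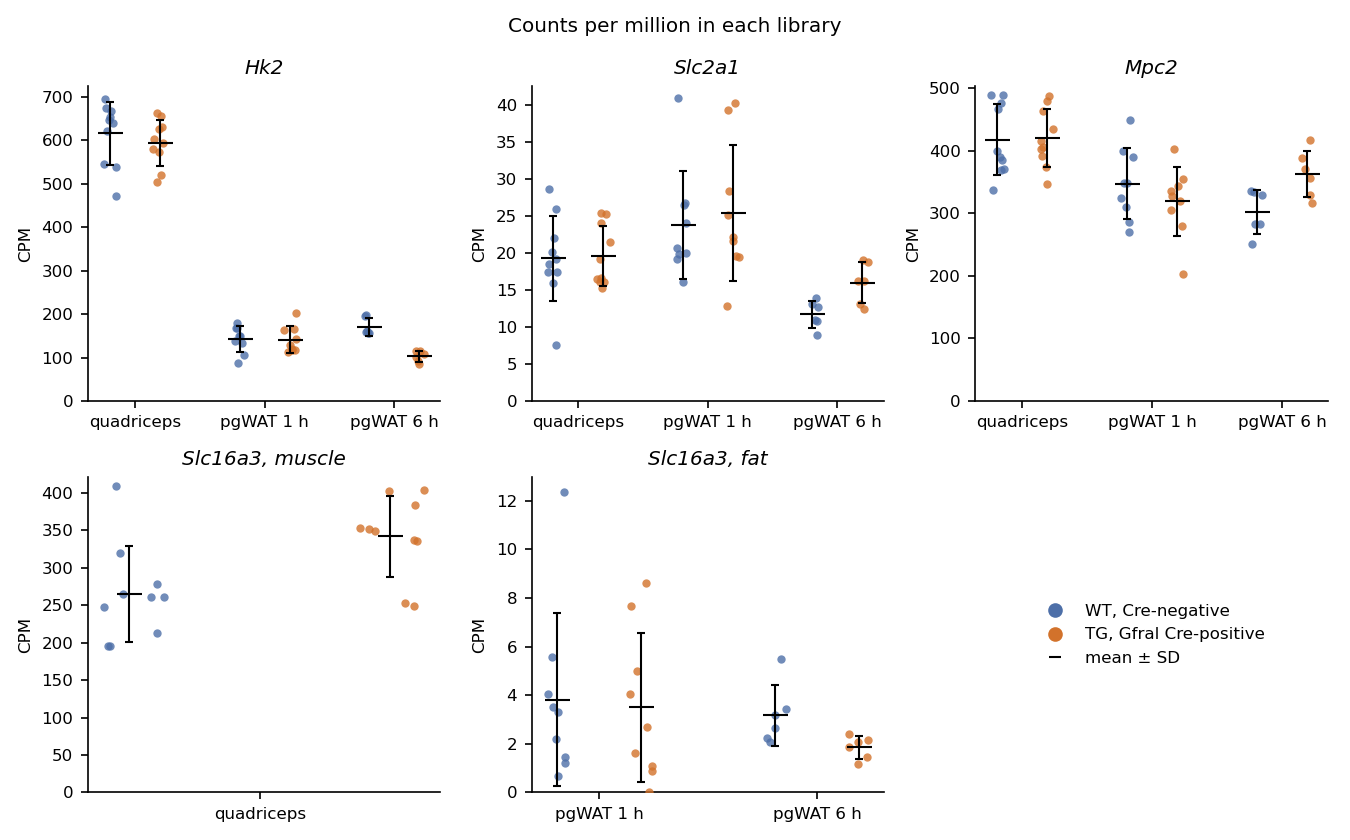
CPM (y axis, from 0) of Hk2, Slc2a1, Mpc2 and Slc16a3 in each library (points) by library set and genotype (x axis), with the mean and SD in black; Slc16a3 is drawn in separate panels for muscle and fat because its levels differ. The 6 TG libraries of pgWAT at 6 h sit between 85.2 and 116 CPM for Hk2, all below the WT libraries, while the genotypes overlap in every other set and panel.

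The members with the next smallest p-values at 6 h were Slc16a3, Dld and Gapdh, none of which passed. Slc16a3, which encodes the lactate exporter MCT4 of glycolytic muscle, was low in fat, with 2.08 to 5.51 CPM in WT (median 2.91) and 1.17 to 2.41 CPM in TG (median 1.98). All 6 TG libraries were below the WT median and 3 were below every WT library, and the log2 change was -0.76 (SE 0.27, adjusted p = 0.0771). Dld, the E3 subunit that pyruvate dehydrogenase shares with other dehydrogenase complexes, was at 87.8 to 102 CPM in WT and 97.6 to 126 CPM in TG, with a log2 change of 0.17 (SE 0.07, adjusted p = 0.140). Gapdh, the glyceraldehyde 3-phosphate dehydrogenase gene often used as a reference, had 68.9 to 101 CPM in WT and 86.4 to 113 CPM in TG, with a log2 change of 0.20 (SE 0.09, adjusted p = 0.163).

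By role, the 4 glucose transporters had log2 changes at 6 h from 0.15 to 0.45 and only Slc2a1 passed. Slc2a4, which encodes GLUT4, had 119 to 146 CPM in WT and 119 to 169 CPM in TG, with a log2 change of 0.15 (SE 0.09, 95% interval -0.04 to 0.34, adjusted p = 0.300). Tbc1d1 and Tbc1d4, the Rab GTPase activators that hold GLUT4 vesicles inside the cell until AKT or AMPK phosphorylates them, had changes of 0.11 and 0.01 and did not pass. Of the 9 genes of upper glycolysis, from hexokinase to triose phosphate isomerase, Hk2 passed and the other 8 lay between -0.08 and 0.22. Pfkm, the muscle phosphofructokinase, was at 0.03 (SE 0.12). Of the 6 tested genes of lower glycolysis none passed: Pkm, which encodes pyruvate kinase, was at 0.13 (SE 0.08, adjusted p = 0.294), and Pgk1 had the highest estimate, 0.41, with an SE of 0.26. None of the 4 lactate genes passed. Ldha had 492 to 661 CPM in WT and 540 to 659 CPM in TG, with a log2 change of 0.08 (SE 0.08, adjusted p = 0.581).

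The pyruvate dehydrogenase subunits themselves stayed close to 0 at 6 h. Pdha1, the catalytic E1 alpha subunit that carries the phosphorylated serines, had 172 to 321 CPM in WT and 176 to 241 CPM in TG, so that the log2 change was -0.06 (SE 0.13, 95% interval -0.34 to 0.22). Pdhb, Pdhx and Dlat, the E1 beta, E3-binding and E2 subunits, had changes of 0.01, 0.04 and 0.02. In 25 of the 32 tested members the 95% interval of the change lay within 1.5-fold in either direction. The 7 others were Hk2, Slc2a1, Slc2a3, Slc2a12, Aldoc, Pgk1 and Slc16a3, and for those of them that did not pass the interval includes a change of that size.

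Marker transcripts of cell types differed with genotype at 6 h only in part. The summed level of 8 adipocyte markers was 38391 to 55853 CPM in WT and 33274 to 46174 CPM in TG, and that of 7 macrophage markers was 1033 to 1498 CPM in WT and 1086 to 2038 CPM in TG, both with overlap. The 6 lymphocyte markers summed to 6.21 to 24.9 CPM in WT and 2.17 to 8.85 CPM in TG. The 10 fast muscle markers summed to 28.0 to 56.9 CPM in WT and 68.6 to 124 CPM in TG without overlap. Acta1 made up most of that sum (18.6 to 48.1 CPM against 57.9 to 117 CPM). The other markers were low and did not move together. Medians in WT and TG were 1.80 and 1.64 CPM for Mylpf, 0.965 and 0.554 for Tnni2, and 1.73 and 3.36 for Tnnc2. Only 4 of the 10 could be tested, of which 1 passed, with log2 changes from -0.08 to 1.26. Ckm was at most 0.826 CPM and Atp2a1 at most 0.321 CPM in any 6 h library. The part of cell makeup in the changes of Hk2, Slc2a1 and Mpc2 was not tested.

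In quadriceps none of 27 tested members passed, where 2.04% of all 8070 genes did. DESeq2 also called 0 members, and 2.28% of all genes. By edgeR 2 members had an unadjusted p under 0.05, a level that 11.7% of all genes reached. Slc2a4 was at 536 to 803 CPM in WT (median 615) and at 533 to 707 CPM in TG (median 595). The ranges overlapped almost fully, and the log2 change was -0.04 (SE 0.07, 95% interval -0.18 to 0.09). Hk2 was at 473 to 695 CPM in WT and 504 to 663 CPM in TG, a change of -0.05 (SE 0.07, 95% interval -0.19 to 0.09). In 24 of the 27 members the interval lay within 1.5-fold, the exceptions being Slc2a12, Gapdh and Slc16a3. The members' median change was -0.03, with 18 estimates below 0 and 9 above, and that of all genes was -0.004. The 3 heat shock transcripts summed to 49.2 to 2793 CPM in WT, with replicates 2 and 10 highest, and to 35.7 to 147 CPM in TG. Without those 2 WT libraries 0 members passed as well. The 7 slow muscle markers varied widely, from 47.3 to 452 CPM in WT and from 67.1 to 823 CPM in TG. The 8 liver transcripts reached 250 CPM in a WT library, where the WT median was 0.324 CPM. The part of fibre makeup in the members' levels was not tested.

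Slc16a3 had the smallest p among the members in muscle. It was at 195 to 410 CPM in WT, with a median of 261, and at 249 to 404 CPM in TG, with a median of 350. The groups overlapped and 8 of 10 TG libraries lay above the WT median. The log2 change was 0.37 (SE 0.12, 95% interval 0.13 to 0.62, adjusted p = 0.121). WT replicate 1 was the highest WT library. Without it the log2 change was 0.46 with an adjusted p of 0.00599 by edgeR. In an edgeR fit with no filter on low counts the adjusted p was 2.50e-04. Slc16a3 passed in none of the other alternatives, among them DESeq2, RLE scaling and each other fit that left out 1 library. Slc16a1, which encodes the other lactate carrier MCT1, did not pass, with a change of -0.09 (SE 0.11).

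Next by p in muscle were Slc2a12 and Gpi1. Slc2a12, the transporter GLUT12, was low, with 5.86 to 16.7 CPM in WT and 5.02 to 10.2 CPM in TG, and all 10 TG libraries were below the WT median. Its log2 change was -0.41 (SE 0.20, adjusted p = 0.400). Each 75-base stretch of its annotated 3′ end is also part of the neighbouring gene Tbpl1 on one strand or the other, so its counts are uncertain. Whether the counting told the strands apart is not given. Gpi1, glucose 6-phosphate isomerase, had a change of -0.14 (SE 0.07, adjusted p = 0.501), with 9 of 10 TG libraries below the WT median. The abundant muscle enzymes were close to 0: Pfkm at -0.07 (SE 0.07), Pkm at -0.14 (SE 0.11), Ldha at -0.02 (SE 0.06) and Pdha1 at -0.02 (SE 0.05), none past the threshold. Gapdh, at 0.04 with an SE of 0.30, was much less precise, with 41.0 to 137 CPM in WT.

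In fat 1 h after CNO none of 26 tested members passed, and none had an unadjusted p under 0.05; 0.0722% of the 11087 genes tested passed in that comparison and 4.65% had such a p. DESeq2 also called 0 members, and 0.171% of all genes. The 3 smallest p-values were those of Aldoa, the aldolase of muscle and most tissues, with a log2 change of -0.20 (SE 0.11), Eno1, alpha-enolase, with -0.44 (SE 0.27), and Slc16a1 with 0.21 (SE 0.15), and their adjusted p was 1.00. Slc2a4 had 134 to 231 CPM in WT and 162 to 286 CPM in TG, a change of 0.16 (SE 0.12, 95% interval -0.10 to 0.41). Hk2 had 87.4 to 178 CPM in WT and 113 to 203 CPM in TG, a change of -0.02 (SE 0.14, 95% interval -0.30 to 0.26). Pfkm (-0.21, SE 0.21), Pkm (0.03, SE 0.15), Ldha (-0.004, SE 0.09) and Pdha1 (-0.01, SE 0.11) did not pass either, and Gapdh was too low to test. In 20 of 26 members the interval was within 1.5-fold. Without the 9 libraries in doubt at 1 h, 0 members passed, but with 3 WT and 6 TG libraries left the absence of calls adds little.

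**Figure D2:**
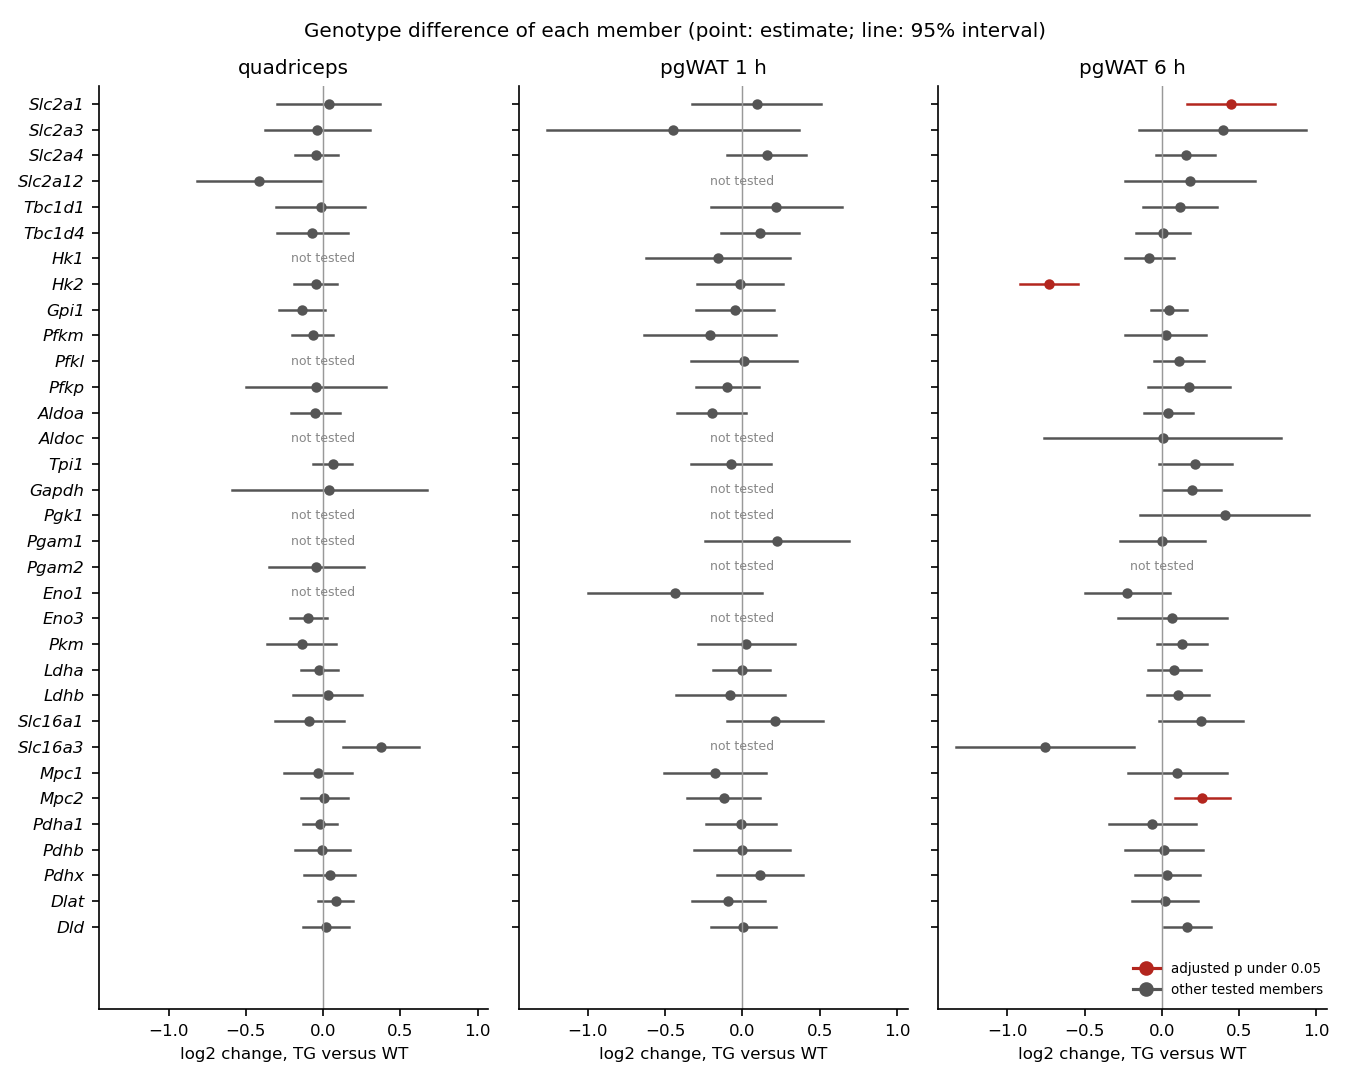
Log2 change of TG against WT (x axis) for each member (y axis, grouped by role) in quadriceps, pgWAT at 1 h and pgWAT at 6 h; points are estimates, lines are 95% intervals, red marks an adjusted p under 0.05 and members too low for the test are written as not tested. Only Hk2, Slc2a1 and Mpc2 are red, all at 6 h, at -0.73, 0.45 and 0.26.

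Whether the genotype effect differed between sets was tested directly, in 2 comparisons that share the 6 h libraries. Between fat at 6 h and at 1 h, only Hk2 of 30 tested members passed, with a difference of -0.71 (SE 0.19, 95% interval -1.09 to -0.33, adjusted p = 0.0222), where 4.21% of all genes passed. Slc2a1 (0.36, SE 0.27, adjusted p = 0.595) and Mpc2 (0.39, SE 0.16, adjusted p = 0.211) did not. Between fat at 6 h and quadriceps, 2 of 31 members passed, where 5.09% of all genes did. These sets differ in tissue, clamp, time and library kit, which cannot be told apart. Hk2 differed by -0.69 (SE 0.11, adjusted p = 5.32e-05). Slc16a3 differed by -1.11 (SE 0.28, 95% interval -1.69 to -0.54, adjusted p = 0.0131), with an estimate above 0 in muscle and below 0 in fat, neither of which passed on its own. DESeq2, which called 6.1% and 6.3% of all genes in these comparisons, also made the 3 calls, and they held under RLE scaling, without the filter and without the libraries in doubt.

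Genes that switch or surround the pathway were counted from lists, by the same edgeR test with adjustment over all genes. Of 9 tested regulators that set flux without being part of the chain, 2 rose in quadriceps, where 2.04% of all genes passed: Pfkfb3, which makes the activator of phosphofructokinase, by 1.00 (SE 0.16, adjusted p = 5.56e-04), and Pdp1, the phosphatase that reactivates pyruvate dehydrogenase, by 0.49 (SE 0.08, adjusted p = 1.06e-04). Without WT replicates 2 and 10, the libraries high in heat shock transcripts, both still passed, Pfkfb3 at 0.99 (adjusted p = 0.00396) and Pdp1 at 0.45 (adjusted p = 6.04e-04). At 6 h in fat 4 of 11 passed, where 14.4% of all genes did. Pdk4, the kinase that switches pyruvate dehydrogenase off, rose by 2.50 (SE 0.26, adjusted p = 7.13e-05), from 12.9 to 31.5 CPM in WT to 79.3 to 176 CPM in TG. Pfkfb3 fell by 1.31 (SE 0.19), from 606 to 829 CPM in WT to 168 to 428 CPM in TG, Pdp2 fell by 0.51 (SE 0.12), and Pdk2 rose by 0.58 (SE 0.15). None of 9 passed in fat at 1 h, where 0.0722% of all genes did.

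A list of 13 genes held transcription factors that act on glycolytic genes, their partners, and also Txnip and Arrdc4, which are not transcription factors. Of the 13, 3 rose and 2 fell at 6 h, where 6.88% of all genes rose and 7.54% fell. Mlxip, the glucose-sensing factor MondoA, rose by 1.03 (SE 0.11), Mlxipl, its relative ChREBP, fell by 0.62 (SE 0.12), and their target Txnip, which limits glucose uptake, rose by 0.37 (SE 0.09). None of the 11 and 12 tested members of that list passed in quadriceps or in fat at 1 h, where 2.04% and 0.0722% of all genes did. Of 8 pentose phosphate genes at 6 h 2 passed, where 14.4% of all genes did: Rpia fell by 0.76 (SE 0.10) and H6pd rose by 0.31 (SE 0.08). Of 20 genes of GLUT4 vesicle traffic, only the fusion protein gene Stx4a passed at 6 h, against the same 14.4%, and it fell by 0.25 (SE 0.07). None of 17 genes of the citric acid cycle with pyruvate carboxylase passed at 6 h. Neither did any of 8 genes of the shuttles that carry NADH electrons into mitochondria or of 9 tested further isoforms. In these 3 lists and the pentose phosphate and traffic lists none passed in either other set. There 2.04% of all genes passed in quadriceps and 0.0722% in fat at 1 h, so the absence of calls adds little.

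Most members differed between the quadriceps and fat sets. Tissue, clamp, extraction kit and time after CNO cannot be told apart in this comparison or in the isoform shares below. The 33 genes took 1.63% ± 0.105 (SD, n = 10) of all gene counts in WT quadriceps, 0.413% ± 0.0327 (SD, n = 9) in WT fat at 1 h and 0.376% ± 0.0260 (SD, n = 6) at 6 h. Between WT quadriceps and WT fat at 1 h, 24 of 30 tested members were higher in muscle and 4 higher in fat, where 80.9% of all genes passed (40.2% higher and 40.7% lower). Wide differences were those of Eno3, at 1701 to 2176 CPM in muscle and 0 to 6.82 CPM in fat, with a log2 difference of 10.01 (SE 0.21), Pfkm, with 7.30 (SE 0.15), and Slc16a3, with 6.66 (SE 0.29). Pgam2, the muscle phosphoglycerate mutase, had a difference of 8.43 (SE 0.64), but 84 of its 86 counts in WT fat at 1 h were in replicate 9. Its value was 4.27 by DESeq2 and 12.70 without that library, so its size is not settled, while Eno3 was at 10.36 and Slc16a3 at 7.25 without it. Slc2a4 was higher in muscle by 2.46 (SE 0.10) and Hk2 by 2.83 (SE 0.12). The genes higher in fat were Pfkp (-2.76, SE 0.15) and Pfkl (-2.60, SE 0.30), the platelet and liver phosphofructokinases, Eno1 (-1.69, SE 0.27) and Hk1 (-1.25, SE 0.26).

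Genes of the mitochondrial end differed less between the tissues. The 5 pyruvate dehydrogenase subunits were higher in muscle by 0.93 (Dld) to 1.61 (Pdha1), and both pyruvate carrier subunits by 0.92 (Mpc1) and 0.98 (Mpc2). Slc2a1 (0.38, SE 0.19, adjusted p = 0.0608) and Slc16a1 (0.22, SE 0.15, adjusted p = 0.175) did not pass; without fat WT replicate 9, an alternative chosen after the data were seen, Slc2a1 was at 0.52 and passed (adjusted p = 0.00600). The size of these values depends on the scale. With library totals in place of TMM (trimmed mean of M-values) scaling, an alternative chosen after the data were seen, the median difference of all genes moved from -0.005 to -0.74 and the share of higher calls from 49.7% to 25.3%. On that scale 21 members were higher and 6 lower in muscle: Tbc1d4 turned from 0.45 to -0.28 and Slc16a1 from 0.22 to -0.52, both past the threshold there, Slc2a1 turned to -0.36 (adjusted p = 0.0825), and Slc2a3 and Mpc1 no longer passed.

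**Figure D3:**
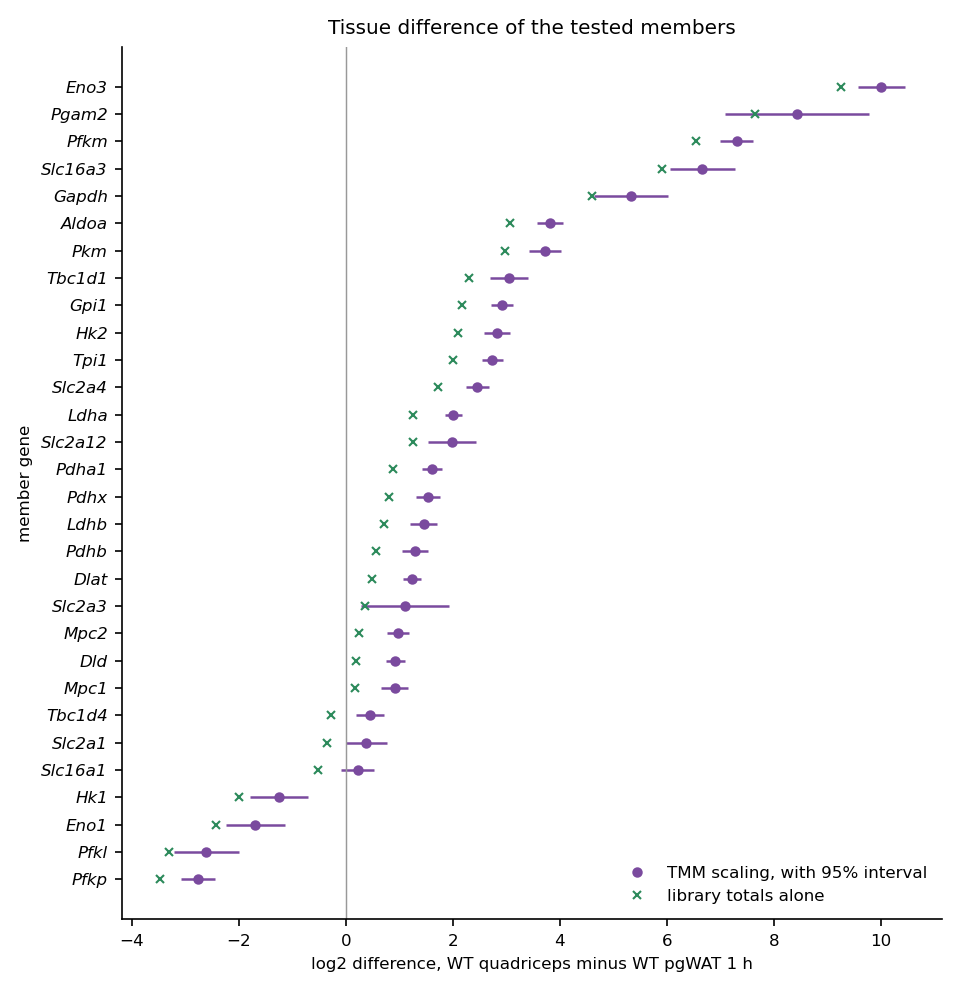
Log2 difference between WT quadriceps and WT pgWAT at 1 h (x axis; above 0 is higher in muscle) for the 30 tested members (y axis), with TMM scaling (circles, 95% intervals as lines) and with library totals alone (crosses). Eno3 at 10.01 and Pfkp at -2.76 mark the ends, and Tbc1d4, Slc2a1 and Slc16a1 change side between the scales.

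A share of counts within an isoform family does not depend on that scaling. Since a 3′ library yields about 1 tag per transcript regardless of length, counts were not divided by length, and a share compares tags. In each of 9 families the isoform with the most counts in WT quadriceps was taken. Its share was compared between WT quadriceps and WT fat at 1 h by a two-sided exact permutation test. All 9 passed after adjustment over the families (adjusted p from 2.44e-05 to 0.00258). The smallest unadjusted p that this test can give is 2.17e-05. Because the isoform was chosen from the same muscle libraries, a higher share in muscle is no independent support. Pfkm made up 99.0% ± 0.507 (SD, n = 10) of phosphofructokinase counts in muscle and 8.35% ± 3.03 (SD, n = 9) in fat. Eno3 made up 99.8% ± 0.0800 (SD, n = 10) of enolase counts in muscle and 12.3% ± 6.30 (SD, n = 9) in fat. Slc16a3 made up 81.3% ± 4.51 (SD, n = 10) of the counts of both lactate carriers in muscle and 4.55% ± 4.10 (SD, n = 9) in fat. The highest fat library reached 11.7%, 19.4% and 13.5% in these 3 families, and the lowest muscle library had 98.2%, 99.6% and 76.2%.

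Both Rab GTPase activators were present in each tissue, and Tbc1d1 made up 61.1% ± 5.55 (SD, n = 10) of their counts in muscle, with 53.7% in the lowest library, and 14.3% to 38.9% in fat. A further 4 families kept the same leading isoform in both tissues. Hk2 held 98.8% ± 0.448 (SD, n = 10) of hexokinase counts in muscle and 82.9% ± 10.8 (SD, n = 9) in fat, and Slc2a4 held 92.8% ± 1.32 (SD, n = 10) and 82.1% ± 9.30 (SD, n = 9) of the 4 transporters. Aldoa held over 95% of the aldolase pair in every library of these groups. Ldha held 97.8% ± 0.515 (SD, n = 10) in muscle and 96.9% ± 0.655 (SD, n = 9) in fat with overlap, and it was the only family whose call was lost, with TG libraries in place of WT (adjusted p = 0.0792 by permutation test) and without the libraries in doubt (adjusted p = 0.170).

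Fat WT replicate 9 at 1 h stood apart in several shares. It held 8078 counts of 9 sperm transcripts, a list chosen after the values were seen, which is 2847 CPM; the next highest library of that set had 52.2 CPM, and Gapdhs, the glyceraldehyde 3-phosphate dehydrogenase of sperm, had 151 counts in it. Hk2 made up 54.5% of hexokinase counts there, against 83.4% to 88.5% in the other WT libraries, and Slc2a3 made up 157 of 713 transporter counts, against a group median of 4.18%. Pgam2 made up 78.5% of the 107 mutase counts in that library. Without it the Pgam2 share was 99.8% ± 0.138 (SD, n = 10) in muscle and 0.868% ± 1.63 (SD, n = 8) in fat, that of Hk2 in fat was 86.5% ± 1.99 (SD, n = 8), and all 9 families still passed. At 6 h the WT fat libraries gave 0.349% ± 0.572 (SD, n = 6) for Pgam2 and 82.9% ± 2.10 (SD, n = 6) for Hk2.

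**Figure D4:**
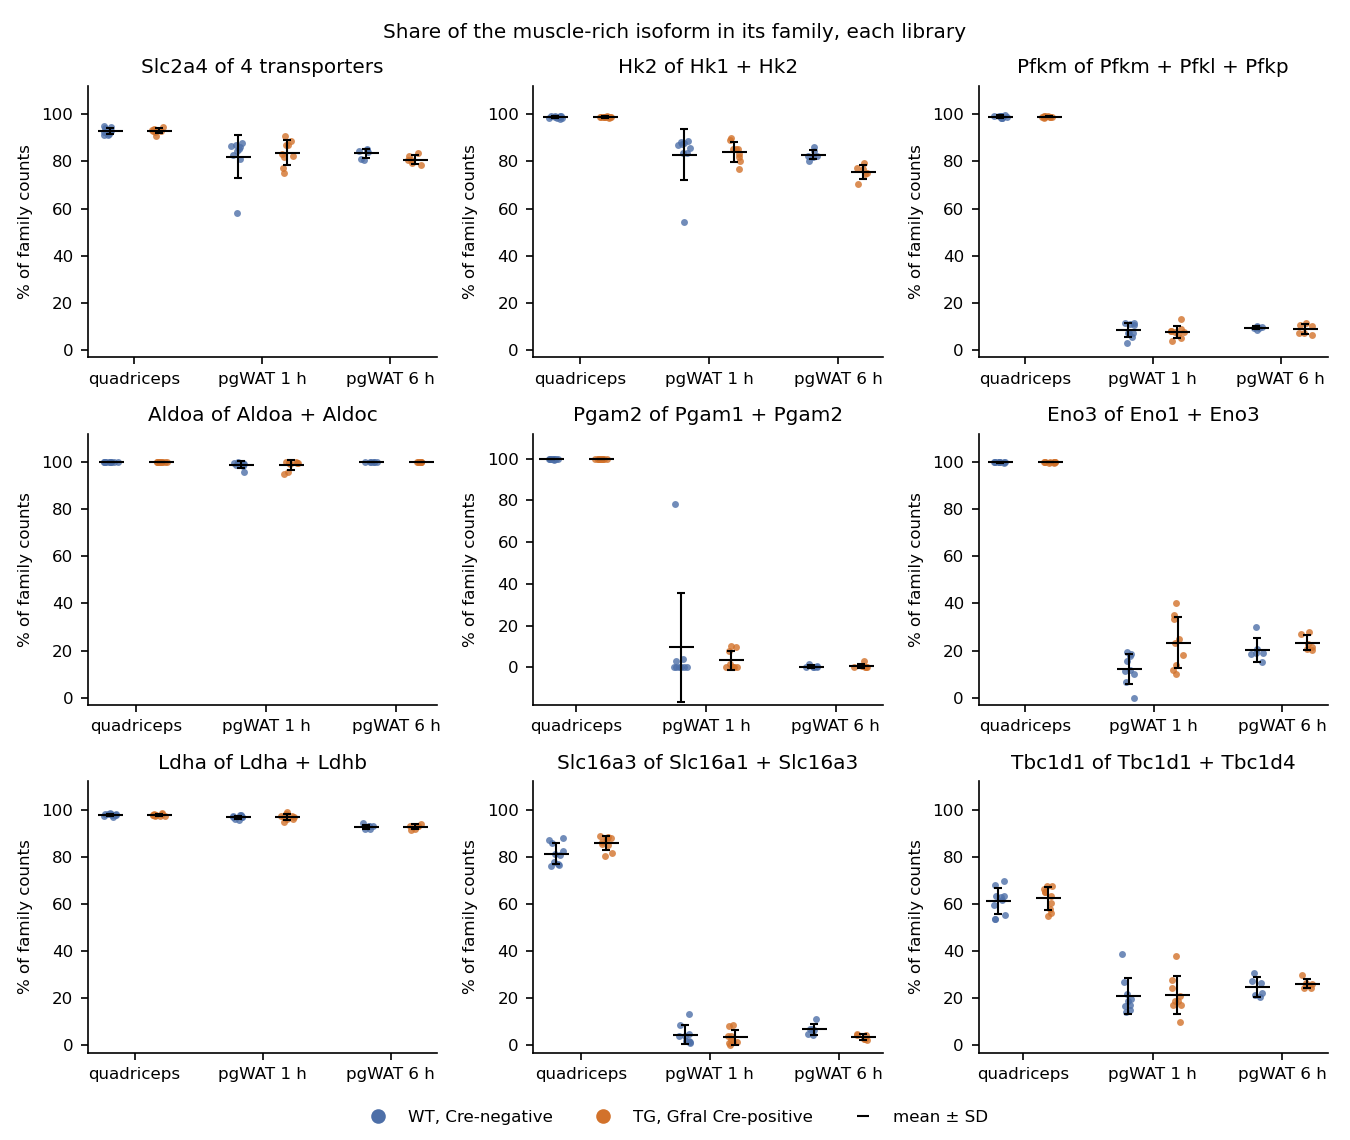
Share of family counts in percent (y axis) in each library (points), by library set and genotype (x axis), with mean and SD in black. The share is that of the isoform with the most counts in WT quadriceps, for 9 families. The SD bar of Pgam2 at 1 h reaches below 0 because of 1 library. Pfkm, Pgam2, Eno3 and Slc16a3 divide the tissues, and WT replicate 9 at 1 h is the low point for Slc2a4 (57.9%) and Hk2 (54.5%) and the high point for Pgam2 (78.5%).

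Within fat, the order of the 2 leading phosphofructokinases differed between the library sets: in WT, Pfkp took 75.2% ± 5.67 (SD, n = 9) and Pfkl 16.5% ± 3.46 (SD, n = 9) at 1 h, against 44.6% ± 2.73 (SD, n = 6) and 45.9% ± 2.74 (SD, n = 6) at 6 h. Kit and time coincide here and cannot be told apart. On one strand or the other, 25.0% of 75-base stretches of the Pfkp 3′ end are shared with the neighbouring gene Pitrm1.

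Isoform shares were then compared between genotypes in 27 tests, 9 families in 3 sets, and none passed after adjustment over the 27. The smallest p was that of Hk2 at 6 h, whose share of hexokinase counts was 80.4% to 86.2% in WT and 70.4% to 79.5% in TG. The groups did not overlap, and the difference was -7.32 percentage points (p = 0.00216 by two-sided exact permutation test, adjusted p = 0.0584). That p is the smallest that 6 against 6 can give. Adjusted over 27 tests, it cannot pass unless other tests also have small p-values. Hk2 alone could therefore not have passed at 6 h, and no conclusion is drawn from the lack of a call. The Slc16a3 share at 6 h was 6.84% ± 2.42 (SD, n = 6) in WT and 3.63% ± 1.11 (SD, n = 6) in TG (exact permutation p = 0.00866, adjusted p = 0.117). In quadriceps it was 81.3% ± 4.51 (SD, n = 10) in WT and 85.9% ± 2.93 (SD, n = 10) in TG (permutation p = 0.0175, adjusted p = 0.122). The Slc2a4 share at 6 h was 80.6% to 85.2% in WT and 78.7% to 83.7% in TG (exact permutation p = 0.0476, adjusted p = 0.232).

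Several glycolytic genes known to be abundant were low in these tables. Pgk1, phosphoglycerate kinase, had 94 counts over all 20 quadriceps libraries, 11 over the 18 fat libraries at 1 h and 448 over the 12 at 6 h. Gapdh had 2073, 179 and 12899 counts, and Pgam1 had 28, 390 and 1485. Shared stretches were sought on both strands. For Gapdh, 73.9% of the 75-base stretches in the last 300 bases of its annotated coding transcripts also occur in other genes, 88 of them pseudogenes, and for Eno1 85.7% do. For Pgk1 and Pgam1 0% do, and the cause of their low counts was not tested. None of the stretches of Hk2, Slc2a1, Mpc2, Slc16a3 or Slc2a4 was shared. Levels of Gapdh, Eno1, Pgk1 and Pgam1 are therefore uncertain, as is that of Mpc1, with 39.8% of its stretches shared. So are the Pgam1 to Pgam2 and Eno1 to Eno3 ratios in fat. These ratios rest on 8 to 107 mutase and 13 to 119 enolase counts in each WT library at 1 h.

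**Figure D5:**
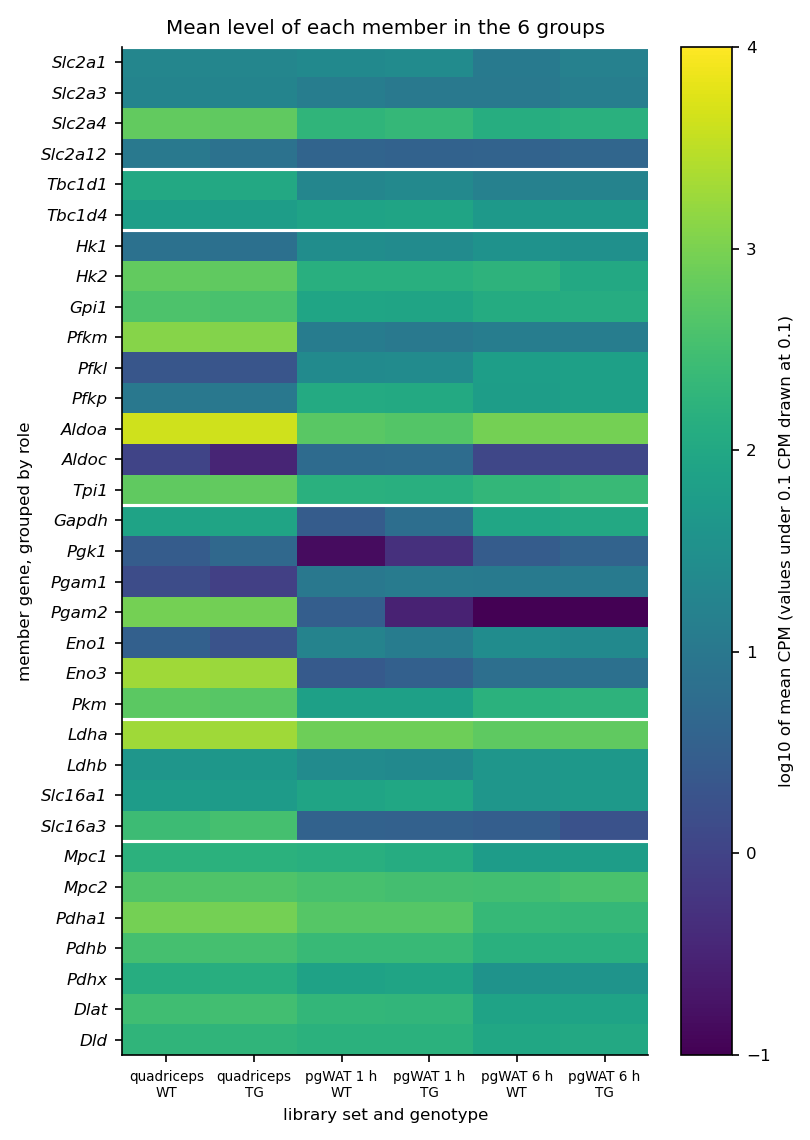
Mean level of each member (y axis, grouped by role, white lines between roles) in the 6 groups (x axis), as the log10 of mean CPM; means under 0.1 are drawn at 0.1. Muscle columns are brightest for Aldoa, Ldha, Eno3 and Pfkm, and the enolase and phosphofructokinase rows trade places between the muscle and fat columns.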

How the data were processed

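The authors deposited raw counts per gene for 3 sets of QuantSeq 3′ libraries; the submitters' processing notes list STAR 2.7.10, cutadapt 1.18, UMI-tools 1.1.2 and bcl2fastq 2.20.0.422, and name GRCm39 and GRCm38 as builds with no role stated for either. The counting step is not given in the sources used here. Rows that name no gene were left out; gene rows held 74.9%, 65.3% and 99.8% of the deposited counts in quadriceps, pgWAT at 1 h and pgWAT at 6 h, and the tables were joined on gene identifiers without version. Each set was fitted with edgeR 4.0.16 in R 4.3.3 (filterByExpr, TMM scaling, robust quasi-likelihood test, Benjamini-Hochberg adjustment over all genes tested, threshold 0.05). Differences between sets came from 1 fit over both. Printed CPM are TMM-scaled within a set, SDs are over libraries, and a count of 3 corresponds to 1.15 to 3.13, 0.618 to 3.07 and 0.233 to 0.328 CPM in the 3 sets, which covers counting error only. Isoform shares were compared by two-sided permutation tests, exact except 10 against 10, where 100000 permutations were drawn. On simulated counts, changes of 1.5-fold were recovered in 70% of changed genes in quadriceps, 56% in pgWAT at 1 h and 53% at 6 h. Alternatives were DESeq2 1.42.0, RLE scaling, no filter, a replicate block, the library number as a factor, and leaving out single libraries or libraries with transcripts of other organs. Replicate numbers shared between the genotypes did not pair the samples. Named genes were all members past the threshold, 7 fixed members (Slc2a4, Hk2, Pfkm, Gapdh, Pkm, Ldha and Pdha1), the 3 further members with the smallest p in each comparison, and up to 3 called genes per list; Pdk2 was named beyond it after its values were seen. The members, lists and tests were chosen with earlier results of these data known. Promoters are RefSeq's and gene positions and 3′ ends GENCODE's, both on GRCm38.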

Additional observations from a re-analysis of the deposited data

Results flagged for a closer look

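Among 116 groups of 4 to 10 libraries, 13 had a lowest or highest library that stood farther from the rest than Dixon's 95% limit allows; chance alone flags about 1 in 20 groups. Of single genes, Pkm was lowest in TG quadriceps replicate 7 at 349 CPM, and Ldha was lowest in WT quadriceps replicate 6 at 1532 CPM and highest in TG quadriceps replicate 2 at 2160 CPM. Dld was highest in TG replicate 3 of pgWAT at 6 h, at 126 CPM. WT replicate 9 of pgWAT at 1 h stood apart in 4 shares: Slc2a4 at 57.9% of the glucose transporters, Hk2 at 54.5% of the hexokinases, Aldoa at 95.6% of the aldolases and Pgam2 at 78.5% of the mutases, and it is the library with 8078 counts of sperm transcripts. In quadriceps the Slc2a4 share was lowest in TG replicate 3 at 90.6%, the Aldoa share lowest in TG replicate 7 at 99.96%, and the Eno3 share lowest in WT replicate 5 at 99.6%. In pgWAT at 6 h the Pgam2 share was highest in TG replicate 6 at 2.92%, and the Eno3 share highest in WT replicate 6 at 30.2%.

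The genotype difference itself differed between library sets for 2 members by a test of that difference. For Hk2 it was lower at 6 h than at 1 h in pgWAT by a log2 difference of -0.71, and lower in pgWAT at 6 h than in quadriceps by -0.69. For Slc16a3 it was lower in pgWAT at 6 h than in quadriceps by -1.11.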

How the results depend on the processing

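Over settings that left out no single library, 431 of the 459 values of named results kept their direction and their side of the threshold, 16 turned sign, 4 newly passed and 8 no longer passed. The count of members called in quadriceps went from 0 to 1 with no filter on low counts (Slc16a3). Leaving out single libraries, it ranged from 0 to 1 (1 without WT replicate 1), and at 6 h the count ranged from 1 to 3. Signs turned for small values: without libraries that held liver or duct transcripts, Pfkm at 1 h was 0.013, Ldha 0.082, Pdha1 0.086 and Slc16a1 -0.17, and Pfkm at 6 h was -0.052. With RLE scaling Ldha at 1 h was 0.0010. Without the libraries in doubt, the difference between 6 h and 1 h was -0.22 for Slc2a4, -0.074 for Pfkm and -0.032 for Pkm, that between 6 h and quadriceps was -0.025 for Pfkm and -0.10 for Gapdh, and the tissue difference of Slc16a1 was -0.11. With library totals as the scale, the tissue differences of Tbc1d4, Slc2a1 and Slc16a1 were -0.28, -0.36 and -0.52. Tbc1d4 no longer passed without the libraries in doubt (0.30, adjusted p = 0.0589 by edgeR), and Slc2a1 passed there (0.56) and with no filter (0.48, adjusted p = 0.0280). The cause was not tested in any of these.

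Leaving out single libraries, log2 changes that turned sign ranged from -0.069 to 0.00055 for Slc2a4 and -0.15 to 0.15 for Gapdh in quadriceps, from -0.10 to 0.029 for Hk2, -0.040 to 0.13 for Pkm, -0.047 to 0.033 for Ldha and -0.066 to 0.025 for Pdha1 at 1 h, and from -0.052 to 0.078 for Pfkm and -0.13 to 0.070 for Pdha1 at 6 h. With the replicate block, 2 members were called at 6 h, Hk2 and Gapdh (0.20, adjusted p = 0.0460 by edgeR), while Slc2a1 (0.44, adjusted p = 0.0683) and Mpc2 (0.26, adjusted p = 0.0577) were not; Gapdh in quadriceps was -0.0053, and the block changed no other call of a member. Same-numbered libraries of the genotypes correlated by -0.18 to 0.20 in quadriceps, -0.18 to 0.37 at 1 h and -0.11 to 0.13 at 6 h, so the numbers gave no pairing. An alternative without fat libraries high in fast muscle markers gave no value, since no library exceeded its limit of 5 times the median. Depth limits the members with few counts, and 6 members in quadriceps and 7 in pgWAT at 1 h could not be tested.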

Other observations

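The share of Eno3 among enolase counts in pgWAT at 1 h was 12.3% ± 6.30 (SD, n = 9) in WT and 23.4% ± 10.8 (SD, n = 9) in TG (exact permutation p = 0.0180, adjusted p = 0.122 over 27 tests), from 8 to 119 enolase counts per library. Ldhb, the heart subunit of lactate dehydrogenase, had 37.5 to 49.2 CPM in WT and 40.3 to 56.9 CPM in TG at 6 h, a log2 change of 0.10 (SE 0.10) that did not pass. Sperm transcripts were also found in TG replicates 4 and 6 of pgWAT at 1 h, with 52.2 and 36.2 CPM, and liver transcripts reached 9494 CPM in a TG library and 2290 CPM in a WT library of that set.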
